A study of Mus musculus with 7 samples.

Results

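The vacuolar H+-ATPase (V-ATPase) paralog pairs are 5 subunits of the proton pump, B, C, G, a and d, that the mouse genome encodes in a widely used form and in a form described as kidney-restricted. The 10 genes were taken by name from the 16272 genes counted: Atp6v1b1 and Atp6v1b2 for B, Atp6v1c2 and Atp6v1c1 for C, Atp6v1g3 and Atp6v1g1 for G, Atp6v0a4 and Atp6v0a1 for a, and Atp6v0d2 and Atp6v0d1 for d, with the kidney-restricted form first. The rule uses gene names alone, but the members were chosen with earlier results of these data known. All 10 genes passed the filter on low counts in the fit over clusters. The question was which form of each subunit was counted in which of the 16 cell clusters that the authors numbered.

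Single cells of 7 whole kidneys from healthy C57BL/6 mice aged 4 to 8 weeks were profiled with 3′ droplet libraries, in which each RNA molecule is counted once as a unique molecular identifier (UMI). Of the 7 mice, 4 were wild type, and Cdh16CremTmG, SclCremTmG and Nphs2CremTmG mice, which carry a Cre driver and a fluorescent reporter, gave 1 kidney each. Barcode suffixes separate 7 libraries, but no label ties a suffix to a mouse, so the libraries were treated as 7 kidneys of 1 group and genotypes were not compared. The table held 43745 cells, 1383 to 14136 in a library, with a median of 1630 to 3115 UMIs per cell. The labels speak of 57979 cells. Marker genes placed proximal tubule-like cells in cluster 3 (26482 cells), loop of Henle-like cells in cluster 4 (1581), distal convoluted tubule-like cells in cluster 5 (8544), principal-like cells in cluster 6 (870) and intercalated-like cells in cluster 7 (1729). Each of these marker lists was highest in its cluster for every gene, except that 3 of the 5 intercalated markers were highest in cluster 8 (110 cells), which also held the principal cell gene Aqp2 at 1204 to 2238 CPM (a library-scaled UMI count, defined below) in its 4 libraries. T lymphocyte-like cells (cluster 14, 1308 cells), which have no known use for the kidney-restricted forms, served as a measure of free RNA. Cluster numbers came from these very counts, so p-values between clusters are no independent evidence.

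The V-ATPase is a rotary motor. Its cytosolic V1 sector splits ATP in a ring of A and B subunits, and its membrane V0 sector moves protons through the a subunit and the ring of c subunits. G and C belong to the outer stalks that hold the motor still, and d links the central shaft to the membrane ring. Every cell uses the pump to acidify lysosomes and endosomes, whereas intercalated cells of the collecting duct place it on the plasma membrane, type A cells to secrete acid and type B cells to secrete bicarbonate. Loss of human ATP6V1B1 or ATP6V0A4 causes distal renal tubular acidosis.

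The pairs differ enough in sequence for reads to be told apart over most of their length. Over the longest coding sequences of the GENCODE annotation, the paralogs were identical at 76.0% of aligned bases for B, 69.6% for a, 65.9% for d, 65.0% for C and 60.7% for G. The longest identical run was 26 bases, in the B pair. RefSeq promoter entries (GRCm38.p6) matched 6 of the 10 genes. The stretch before the start site of Atp6v0a4 overlaps an exon of D630045J12Rik and is not shown. Those of the other matched kidney-restricted genes, all high in the same cluster, are shown, with annotated exons left out. They are the 250 bases at chr1:138273488-138273737 (plus strand) for Atp6v1g3, 223 bases at chr6:83742767-83742989 (plus strand) for Atp6v1b1, and 250 bases at chr12:17324731-17324980 (minus strand) for Atp6v1c2, the last lying inside the span of a longer Atp6v1c2 transcript. Capitals mark TGTTTAC, a core motif of forkhead factors, the family of the intercalated cell regulator Foxi1.
Atp6v1g3: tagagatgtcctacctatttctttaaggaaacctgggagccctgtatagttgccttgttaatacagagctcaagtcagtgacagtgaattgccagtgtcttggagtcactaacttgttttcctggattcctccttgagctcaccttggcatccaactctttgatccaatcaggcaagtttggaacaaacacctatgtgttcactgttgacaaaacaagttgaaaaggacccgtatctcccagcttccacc
Atp6v1b1: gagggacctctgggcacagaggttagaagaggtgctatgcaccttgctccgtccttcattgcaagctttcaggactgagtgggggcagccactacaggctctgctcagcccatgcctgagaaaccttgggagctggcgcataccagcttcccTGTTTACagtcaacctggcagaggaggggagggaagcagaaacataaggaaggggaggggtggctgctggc
Atp6v1c2: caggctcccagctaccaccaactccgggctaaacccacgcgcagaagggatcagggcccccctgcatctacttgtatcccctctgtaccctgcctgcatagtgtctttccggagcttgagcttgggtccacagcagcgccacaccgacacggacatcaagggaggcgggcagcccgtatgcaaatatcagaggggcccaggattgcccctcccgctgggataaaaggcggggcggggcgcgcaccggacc
A search for TGTTTAC and TATTTAC on both strands found 1 match among the 6 promoters, TGTTTAC in Atp6v1b1, starting 98 bases before the RefSeq start site, from which the stretch shown is set apart by 27 bases of annotated exon. Of 32851 mouse promoter windows of 250 bases, 5.76% held a match. The CpG count was 1 for Atp6v1g3, 1 for Atp6v0a4, 3 for Atp6v1b1 and 15 for Atp6v1c2, against 4 for Atp6v0a1, 18 for Atp6v0d1 and a median of 6 over all windows.

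Levels below are CPM, the UMIs of a gene scaled to a common total over all cells of a cluster in 1 library, as mean ± SD over libraries. Counting of 3′ ends has no length factor, but capture may differ between genes, so the order of levels across clusters is firmer than the ratio of 2 genes. The plot of levels by cluster shows every library.

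**Figure D1:**
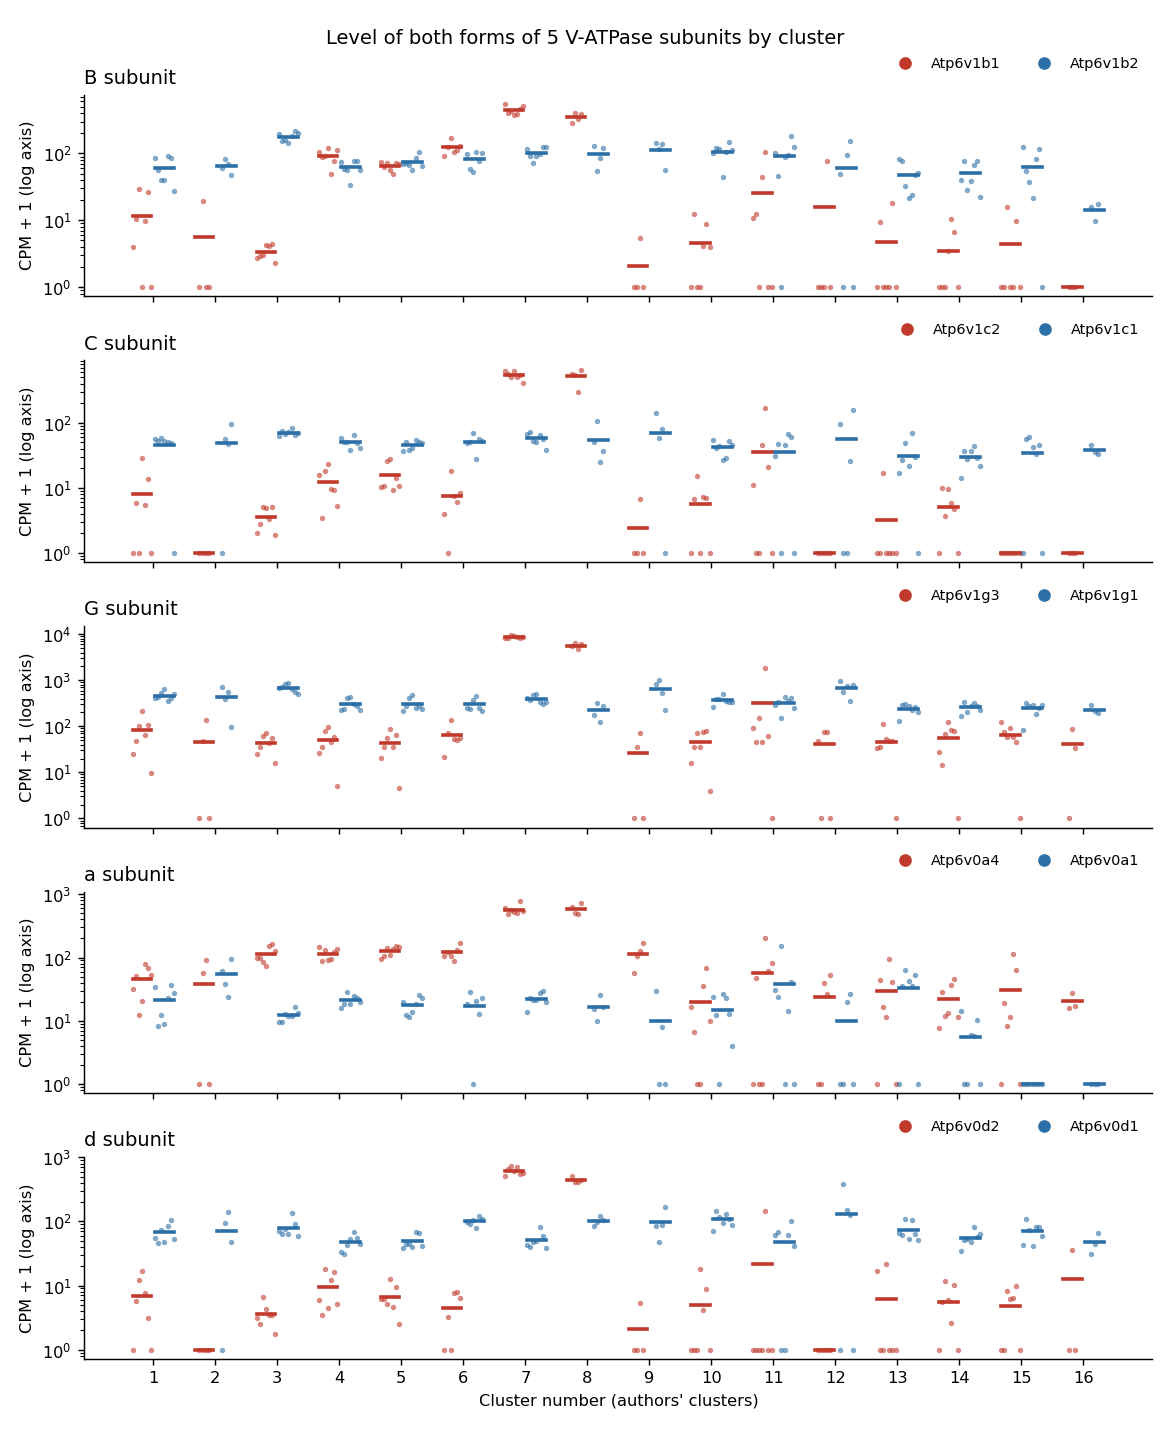
Level of both forms of each subunit (CPM + 1, log axis) in the 16 clusters; points are libraries with at least 5 cells in the cluster, bars their means, red the kidney-restricted and blue the widely used form. All 5 red forms peak in clusters 7 and 8. In clusters 4, 5 and 6 every library of Atp6v1b1 and Atp6v0a4 lies above 48 CPM, and Atp6v1g3 averages 42.1 to 64.0 CPM, while Atp6v1c2 and Atp6v0d2 average below 15 CPM.

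All 5 kidney-restricted forms were higher in intercalated-like cells than in the other nephron clusters, while 4 of the 5 widely used forms were not called and Atp6v0d1 was slightly lower. In edgeR's quasi-likelihood test of cluster 7 against the mean of clusters 3, 4, 5 and 6, 19.6% of the 7952 genes tested were called higher and 17.8% lower at an adjusted p under 0.05. The median log2 fold change was 6.32 for the kidney-restricted forms, 0.02 for the widely used forms and -0.0041 for all genes. The 5 kidney-restricted calls held in every alternative tried.

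Atp6v1g3, a stalk subunit at chr1:138273738-138289462, was the most abundant member. In cluster 7 its lowest, median and highest library held 8152, 8525 and 9541 CPM. In cluster 3 the same values were 14.8, 42.7 and 71.1 CPM. The log2 fold change of cluster 7 over the other nephron clusters was 7.87 ± 0.24 (SE; adjusted p = 1.2e-54, edgeR). Cluster 7 was 3.95% of cells and 6.06% of UMIs, and it held 88.1% of all Atp6v1g3 UMIs. Its partner Atp6v1g1, at chr4:63544772-63550750, had 301, 364 and 494 CPM in the lowest, median and highest library of cluster 7, and its fold change was 0.02 ± 0.14 (adjusted p = 0.96, edgeR).

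Atp6v0d2, the d form also known from osteoclasts, lies at chr4:19876841-19922605. Its cluster 7 libraries ranged from 519 through a median of 601 to 720 CPM, and its cluster 3 libraries from 0.752 through 2.45 to 5.71 CPM. The log2 fold change in cluster 7 was 6.99 ± 0.17 (adjusted p = 1.5e-60, edgeR), and 87.8% of its UMIs lay in that cluster. Atp6v0d1, at chr8:105524465-105566047, was the only widely used form that moved. It had 50.5 ± 15.5 CPM in cluster 7, against 79.0 in cluster 3, 46.0 in cluster 4, 47.9 in cluster 5 and 100 CPM in cluster 6, so it lay below clusters 3 and 6 but not below clusters 4 and 5. Its log2 fold change against their mean was -0.42 ± 0.13 (adjusted p = 0.0042, edgeR), lower in 6 of 6 libraries. That call was lost at 1000 UMIs per cell and without the library term.

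Atp6v1c2, at chr12:17284721-17329359, had 404, 551 and 634 CPM in the lowest, median and highest library of cluster 7 and 0.846, 2.36 and 4.15 CPM in cluster 3. Its log2 fold change was 6.32 ± 0.16 (adjusted p = 9.1e-55, edgeR), and 81.6% of its UMIs were in cluster 7. Its last 50 bases overlap Pdia6 on the other strand, and the sources used here do not say whether counting used strand. Atp6v1c1, at chr15:38661933-38692446, stood at 56.5 ± 11.7 CPM in cluster 7 and 69.7 ± 6.89 CPM in cluster 3.

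Atp6v1b1 and Atp6v0a4 were less confined. Atp6v1b1, at chr6:83742990-83758855, had 381, 431 and 548 CPM in the lowest, median and highest library of cluster 7, and its log2 fold change was 3.52 ± 0.13 (adjusted p = 8.3e-45, edgeR). Only 55.6% of its UMIs fell in cluster 7. Atp6v0a4, at chr6:38048483-38124586, had 494, 535 and 786 CPM there, with a log2 fold change of 2.23 ± 0.14 (adjusted p = 7.7e-27, edgeR). Cluster 7 held 22.4% of Atp6v0a4 UMIs and cluster 3 held 50.6%. Of all genes together, cluster 3 held 58.3% of UMIs, in 60.5% of cells. Tmem213, also an intercalated cell gene, lies inside Atp6v0a4 on the other strand, and D630045J12Rik overlaps the 5′ end of Atp6v0a4 on the same strand. The partners Atp6v1b2 (chr8:69088646-69113711) and Atp6v0a1 (chr11:101009452-101063719) had 102 ± 19.8 and 21.3 ± 5.23 CPM in cluster 7, with fold changes of 0.11 ± 0.13 and 0.36 ± 0.19 that did not pass the test.

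The rest of the pump moved with the kidney-restricted forms in cluster 7. Of 27 other V-ATPase genes listed, 19 were tested, 14 rose and 1 fell, with a median log2 fold change of 1.82. Among subunits made in 1 main form, Atp6v1a, the catalytic A subunit, had 1793 ± 274 CPM in cluster 7 and 256 ± 23.4 CPM in cluster 3, with a log2 fold change of 2.25 ± 0.15 over the nephron clusters. Atp6v1d rose by 2.40, Atp6v0b by 1.99, Atp6v1h by 1.87 and Atp6v1e1 by 1.83. The accessory subunit genes Atp6ap2 and Atp6ap1 rose by 2.51 and 2.31. Of the genes for assembly complexes and TLDc-domain proteins, Tbc1d24 rose by 3.49, Dmxl1 by 2.74 and Ncoa7 by 1.82, and Rogdi fell by 0.78. The further a forms Atp6v0a2 and Tcirg1 were not called, at -0.14 ± 0.16 and -0.20 ± 0.36.

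**Figure D2:**
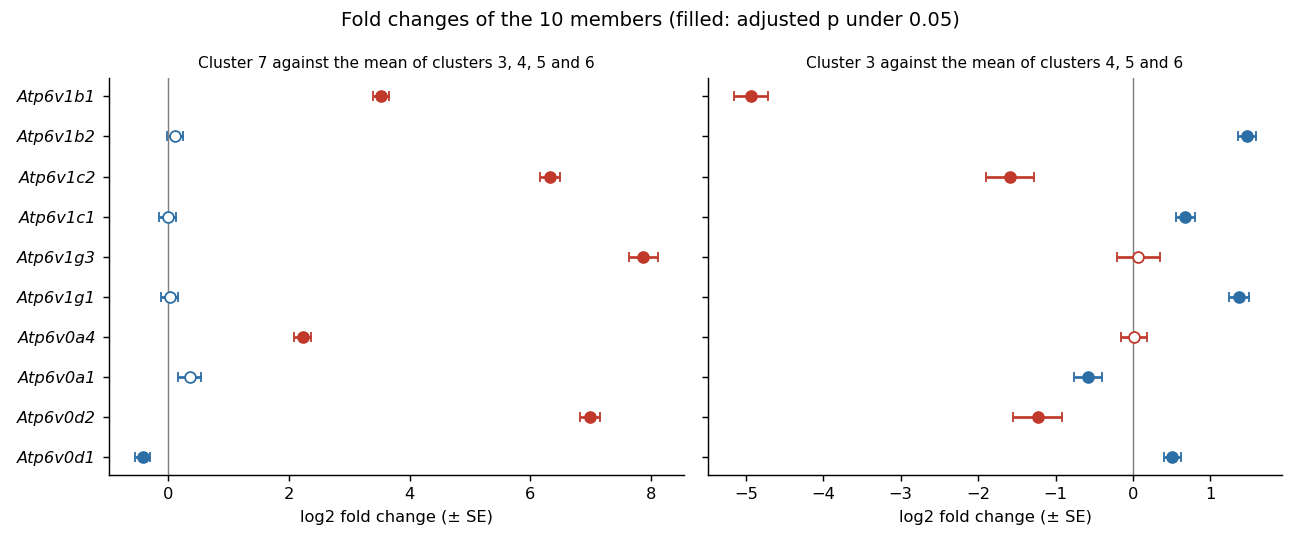
log2 fold change ± SE from the edgeR fit for the 10 members, in cluster 7 against the mean of clusters 3, 4, 5 and 6 (left) and in cluster 3 against the mean of clusters 4, 5 and 6 (right); red marks kidney-restricted forms and filled points an adjusted p under 0.05. Red points run from 2.23 to 7.87 on the left, and on the right Atp6v1b1 is at -4.94.

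The forms divided differently in proximal tubule-like cells. Against the mean of clusters 4, 5 and 6, cluster 3 had 4 widely used forms called higher and 3 kidney-restricted forms and Atp6v0a1 called lower. Of all genes tested, 28.3% were called higher and 29.4% lower in this comparison. Atp6v1b2 had its highest mean in cluster 3, at 141 to 213 CPM with a median of 179, and single libraries of clusters 10, 11 and 12 reached into that range. Its log2 fold change was 1.47 ± 0.12 (adjusted p = 9.1e-21, edgeR). Atp6v1g1 rose by 1.37 ± 0.13, Atp6v1c1 by 0.67 ± 0.12 and Atp6v0d1 by 0.51 ± 0.11. With DESeq2 size factors the median of all genes in this comparison moved from -0.02 to -0.31 and the Atp6v0d1 call was lost, at 0.20. In the same fit the share of calls that were higher went from 49.1% to 30%.

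Atp6v1b1 was nearly absent from cluster 3. Its libraries held 1.32 to 3.45 CPM there, against 48.5 to 122 CPM in cluster 4, 48.1 to 72.3 CPM in cluster 5 and 91.4 to 172 CPM in cluster 6. The log2 fold change was -4.94 ± 0.22 (adjusted p = 3.7e-39, edgeR), lower in 6 of 6 libraries. Atp6v1c2 and Atp6v0d2 were also called lower, by -1.59 ± 0.31 and -1.23 ± 0.32, at levels near 2.6 CPM in cluster 3. Atp6v0a4 had similar means in these 4 clusters, at 113 ± 35.1 CPM in cluster 3, 115 ± 23.7 in cluster 4, 126 ± 23.3 in cluster 5 and 119 ± 28.8 in cluster 6. Its fold change of 0.0095 ± 0.17 did not pass the test, and log2 differences in single libraries ran from -0.51 to 0.32. Its partner Atp6v0a1 stayed at 11.2 ± 2.30 CPM in cluster 3. The fall of Atp6v0a1, -0.58 ± 0.18 (adjusted p = 0.0042, edgeR), was lost at 1000 UMIs per cell and without library 2.

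Low counts of the kidney-restricted forms outside cluster 7 were set against free RNA. In T lymphocyte-like cells Atp6v1g3 stood at 0 to 124 CPM, which overlapped its range in each of clusters 3, 4, 5 and 6. Within each library, the ratio of a gene to 5 other intercalated genes (Slc4a1, Slc26a4, Foxi1, Aqp6 and Slc4a9) in cluster 7 gave the UMIs that RNA of the cluster 7 mix would bring to another cluster. Atp6v1g3 had 2938 UMIs in cluster 3 against 1764 at that ratio, which is 1.67 times, and 2.04 times in cluster 14. Atp6v0d2 was at 1.16, 3.97, 2.06 and 0.97 times in clusters 3, 4, 5 and 6, and at 1.89 times in cluster 14. Atp6v1c2 was at 1.65 and 1.15 times in clusters 3 and 6, and at 2.05 times in cluster 14. By contrast, Atp6v0a4 had 80.1 times that number in cluster 3 and 68.7 times in cluster 5, against 9.15 times in cluster 14. For Atp6v1b1 it was 57.7, 39.0 and 36.0 times in clusters 4, 5 and 6, but 2.18 in cluster 3 and 2.13 in cluster 14. Clusters 13 and 15 gave 33.2 and 36.6 times for Atp6v0a4, 8.79 and 4.84 for Atp6v1b1, and 4.28 and 4.02 for Atp6v0d2. Those values rest on 3 and 4 UMIs of the 5 intercalated genes. The cluster 7 ratio also leaves out free Atp6v0a4 RNA from cluster 3, which held 50.6% of its UMIs. In cluster 3 the mean levels were 43.2 CPM for Atp6v1g3, 2.62 for Atp6v0d2, 2.61 for Atp6v1c2 and 2.41 for Atp6v1b1. T lymphocyte-like cells had 56.1, 4.45, 4.12 and 2.52 CPM, each higher by less than the SD over their libraries. In the lymphocyte-like clusters 13 and 15 Atp6v1c2 was lower than in cluster 3, at 2.24 and 0 CPM. Atp6v1g3, Atp6v0d2 and Atp6v1b1 were higher there than in cluster 3. No expression is claimed from these cluster 3 counts, and their source was not tested. In clusters 4 and 5 Atp6v1c2 had 5.78 and 5.67 times the number, at 11.2 ± 7.26 and 14.6 ± 8.00 CPM, against 4.12 ± 3.66 CPM in cluster 14. In libraries 3 and 4, where cluster 7 was 8.10% and 8.54% of cells, Atp6v1g3 in cluster 3 was higher than in the other 5 libraries.

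A measure that does not depend on how libraries are scaled is the restricted share, the kidney-restricted form as a percent of both forms' UMIs, taken where a library's cluster held at least 10 UMIs of the pair. It compares UMIs of both forms summed over the same cells, not counts within single cells. In cluster 7 the share was 81.4% ± 2.32 for B, 90.6% ± 1.39 for C, 95.8% ± 0.60 for G, 96.4% ± 0.88 for a and 92.5% ± 1.87 for d (SD, n = 7 libraries). In cluster 3 it was 1.38% for B, 3.60% for C, 5.73% for G and 3.30% for d, but 90.5% for a. Of the 5 pairs, only a was counted mostly as its kidney-restricted form in proximal tubule-like cells. The further a forms Atp6v0a2 and Tcirg1, at 20.7 and 5.53 CPM in cluster 3, are not part of this share.

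**Figure D3:**
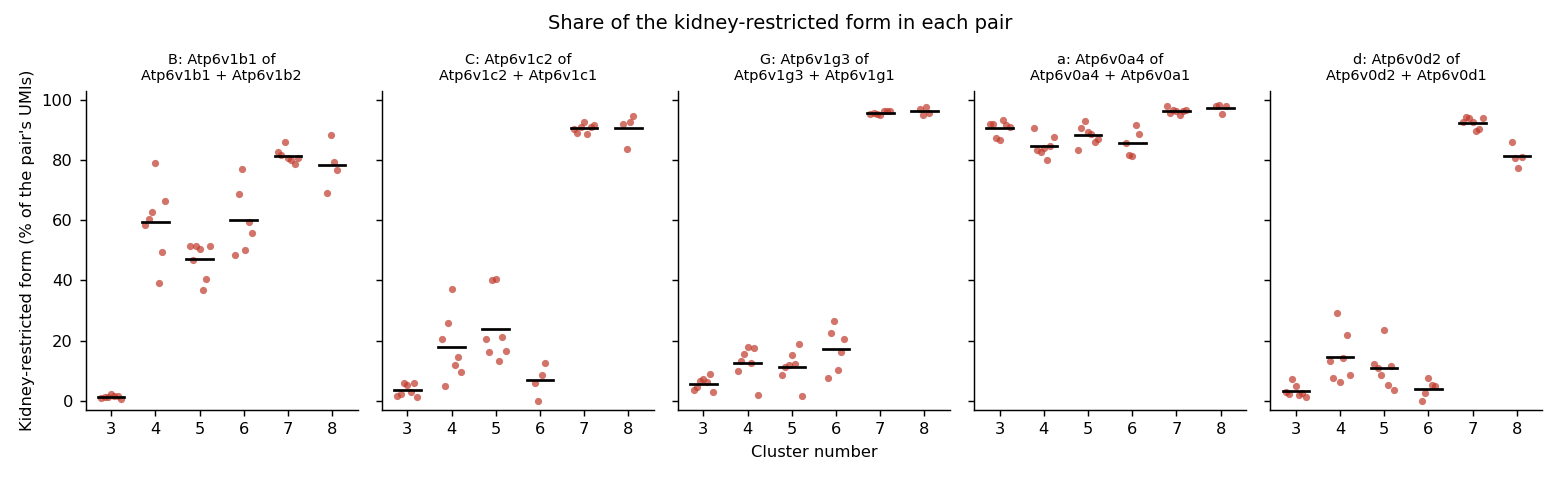
Kidney-restricted form as a percent of the pair's UMIs in clusters 3 to 8; points are libraries with at least 10 UMIs of the pair and bars their means. The a pair lies above 79% in every cluster shown, the C, G and d pairs jump between cluster 6 and cluster 7, and the B pair takes middle values in clusters 4, 5 and 6.

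The B pair took middle values in the distal clusters. Its share was 59.3% in cluster 4, 47.0% in cluster 5 and 59.9% in cluster 6, between the values of clusters 3 and 7. The difference between clusters 7 and 3 was 80.1 points ± 2.53 (SD, n = 7 libraries; exact sign-flip permutation test, two-sided p = 0.016, adjusted p = 0.027 over 41 tests). Cluster 7 exceeded cluster 4 by 22.1 points and cluster 5 by 34.5 points, and cluster 3 lay below cluster 4 by 58.0 points, each in 7 of 7 libraries with the same adjusted p = 0.027 from the exact test. An exact p of 0.016 is the smallest that 7 libraries can give. Without any 1 of libraries 1 to 6, these and the following called differences in share kept their direction, but their adjusted p was 0.051 to 0.092, since 6 libraries give no exact p below 0.031. Without library 7, which holds too few cells of cluster 6, it was 0.046.

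For the C, G and d pairs the share in cluster 7 exceeded that in clusters 3, 4 and 5 by 66.6 to 90.0 points in all 7 libraries (adjusted p = 0.027, exact test). Against cluster 6 the B and G differences of 21.6 and 78.4 points passed in 6 of 6 libraries (adjusted p = 0.046, exact test), whereas C, a and d could be compared in only 4 or 5 libraries, too few to reach p under 0.05. The a pair differed least between cluster 7 and clusters 3, 4 and 5. Cluster 7 exceeded cluster 3 by 5.83 points, cluster 4 by 11.7 points and cluster 5 by 8.06 points, again in 7 of 7 libraries. Cluster 3 exceeded cluster 4 by 5.84 points in 7 of 7 libraries (adjusted p = 0.027, exact test), and clusters 3 and 5 differed by 2.23 points ± 4.87 (SD, n = 7; exact p = 0.27), which did not pass.

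Smaller differences separated cluster 3 from clusters 4 and 5. As cluster 3 minus cluster 4 and cluster 3 minus cluster 5, the C share differed by -14.2 and -20.4 points and the d share by -11.2 and -7.49 points, each in 7 of 7 libraries (adjusted p = 0.027, exact test). The G share differed by -6.90 and -5.58 points in 6 of 7 libraries (adjusted p = 0.046, exact test). Of the G pair, Atp6v1g1 was the form called in cluster 3, and Atp6v1g3 was at 0.066 ± 0.28 against clusters 4, 5 and 6. In T lymphocyte-like cells the shares were 14.1% for C and 10.3% for d, against 17.8% and 24.0% for C and 14.5% and 10.8% for d in clusters 4 and 5. At 1000 UMIs per cell the C and G differences and that of d against cluster 4 lost their calls.

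Within the distal nephron clusters 5 and 4 were compared, and cluster 6 was tested against neither. Atp6v0d1 held 79.2 to 123 CPM in cluster 6, above its 29.9 to 68.5 CPM in cluster 4 and 37.2 to 67.8 CPM in cluster 5. Between clusters 5 and 4, 6.75% of genes were called higher and 6.01% lower, and 1 member was called, Atp6v1b2, higher in cluster 5 by 0.51 ± 0.17 (adjusted p = 0.037, edgeR). Its levels were 55.0 to 105 CPM in cluster 5 and 32.5 to 77.2 CPM in cluster 4, so the libraries overlapped. The call was lost without any 1 of libraries 1 to 6, at 1000 UMIs per cell, without the library term and without the filter on low counts. Atp6v1b1 was at -0.26 ± 0.21 in the same comparison and was not called, although its CPM was lower in cluster 5 in 7 of 7 libraries.

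Single cells of cluster 7 counted several kidney-restricted forms together. With every cell thinned to 1000 UMIs, and 2494 shallower cells of all clusters left out, a cluster 7 cell held a median of 3 of the 5 forms, and 2.78% of its 1691 cells held all 5. At full depth, with a median of 3917 UMIs per cell, the median was 4 forms and 46.6% held all 5. In clusters 3, 4 and 5 the median was 0 forms at both depths, and in cluster 6 it was 0 forms thinned and 1 at full depth. Atp6v1g3 was counted in 98.0% of thinned cluster 7 cells (99.2% unthinned) and in 7.2% of thinned T lymphocyte-like cells (13.6% unthinned, median 1875 UMIs). The other 4 forms were counted in 33.9% to 44.5% of thinned cluster 7 cells and in at most 2% of thinned T lymphocyte-like cells.

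**Figure D4:**
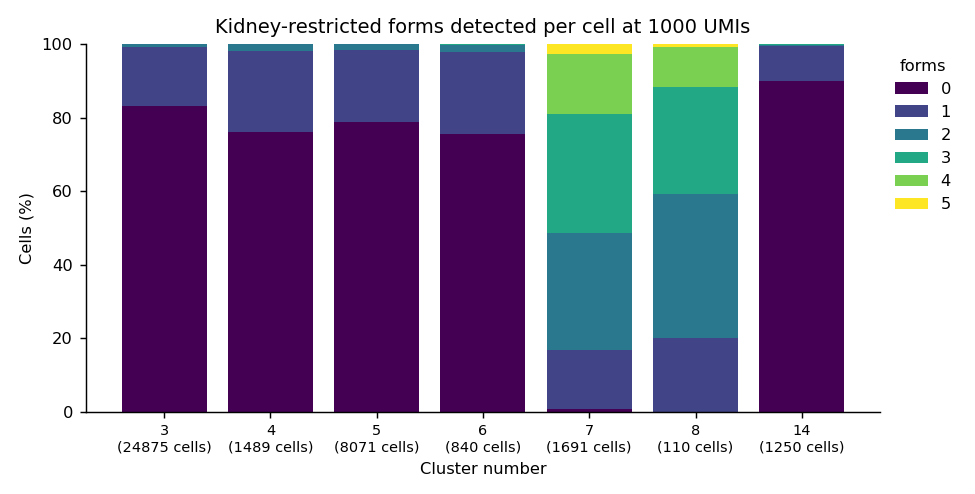
Percent of cells of each cluster with 0 to 5 kidney-restricted forms detected after thinning every cell to 1000 UMIs; cell numbers are below the bars. More than 75% of cells in clusters 3 to 6 and 89.8% of cells in cluster 14 held none, against 0.83% in cluster 7.

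Both paralogs of a pair were counted together in some cells of cluster 7. At full depth 71.5% of cells held Atp6v1b1, 33.0% held Atp6v1b2 and 26.3% held both. Both G forms were counted in 70.5% of cells, both C forms in 17.4%, both d forms in 18.5% and both a forms in 8.73%. At 1000 UMIs per cell both forms were counted in 3.19% of cells for B, 28.7% for G, 2.07% for C, 2.66% for d and 0.89% for a. In T lymphocyte-like cells at full depth both G forms were counted in 6.19% of cells, and both forms of any other pair in at most 0.31%. How far free RNA adds to these shares was not tested.

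Cluster 8 held intercalated and principal markers, and its restricted shares were 78.4% for B, 90.8% for C, 96.3% for G, 97.3% for a and 81.2% for d. Against cluster 7, 2.3% of genes were called higher and 4.73% lower, and 2 members were called lower: Atp6v1g1 by -1.002 ± 0.24 (adjusted p = 0.0031, edgeR) and Atp6v0d2 by -0.78 ± 0.26 (adjusted p = 0.046, edgeR). The median of all genes was -0.17, and with DESeq2 size factors it was 0.21, at which neither of these calls remained (Atp6v1g1 was at -0.56) and the 1 member called was Atp6v0d1, higher. The share of calls that were higher went from 32.7% to 93.0% between these scalings. Without library 5 no member was called. Atp6v1g3 was at 4709 to 6332 CPM in the 4 libraries of cluster 8 and at 8152 to 9541 CPM in cluster 7, without overlap, but its fold change of -1.08 ± 0.38 did not pass (adjusted p = 0.066, edgeR). It passed under 4 alternatives, namely at 1000 UMIs per cell, without the highest doublet scores, with only the compared clusters in the fit and without library 4. The restricted share of d was lower than in cluster 7 by 10.5 points in 4 of 4 libraries. No exact p under 0.125 is possible with 4 libraries. Atp6v0d1 was at 101 ± 14.9 CPM in cluster 8, within the range of cluster 6. Atp6v1g1 was at 176 and 120 CPM in cluster 8 of libraries 1 and 5, below both clusters 6 and 7. In libraries 2 and 6 it lay between them. Whether the values of cluster 8 come from droplets that hold an intercalated and a principal cell was not tested.

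Type A-like and type B-like cells of cluster 7 gave a comparison that no member had a part in defining. Cells were assigned by the UMIs of 4 type A genes (Slc4a1, Aqp6, Kit and Adgrf5) and 3 type B genes (Slc26a4, Slc4a9 and Insrr), giving 645 type A-like and 724 type B-like cells with medians of 3755 and 5270 UMIs, and 360 cells in neither. Of 3583 genes tested, 10.4% were called higher and 9.85% lower in type A-like cells. Of the 9 members tested, 1 was called higher and 4 lower.

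Atp6v1b1 was higher in type A-like cells in 7 of 7 libraries. Its lowest, median and highest library held 462, 556 and 716 CPM in type A-like cells and 350, 370 and 518 CPM in type B-like cells, so the ranges overlapped although every library moved the same way. The log2 fold change was 0.46 ± 0.089 (adjusted p = 8.2e-05, edgeR). The restricted share of B was 86.5% in type A-like and 78.4% in type B-like cells, a difference of 8.01 points ± 2.67 in 7 of 7 libraries (adjusted p = 0.027, exact sign-flip test), and 11.3 points at 1000 UMIs per cell, where the adjusted p was 0.13.

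Atp6v1c2 and Atp6v1g3 went the other way. Atp6v1c2 had 290, 346 and 532 CPM in the lowest, median and highest library of type A-like cells and 466, 673 and 747 CPM in type B-like cells. Its log2 fold change was -0.77 ± 0.095 (adjusted p = 5.4e-09, edgeR), lower in 7 of 7 libraries. Atp6v1g3 had 5903, 6163 and 7444 CPM against 9034, 9557 and 10384 CPM, without overlap, with a log2 fold change of -0.57 ± 0.073 (adjusted p = 1.4e-08, edgeR). These 3 calls held in every alternative tried. Atp6v0d1 (-0.78 ± 0.19) and Atp6v0d2 (-0.28 ± 0.088) were called lower as well, but Atp6v0d1 lost its call in the DESeq2 test and Atp6v0d2 lost its call there, at 1000 UMIs per cell, without the library term and without library 6. The share of G fell by 1.52 points (adjusted p = 0.027, exact test, and 0.058 at 1000 UMIs per cell), and those of C, a and d did not pass. Atp6v0a4 was at 591 ± 98.6 and 621 ± 128 CPM in the 2 cell types, with an interval of the log2 difference from -0.24 to 0.10.

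**Figure D5:**
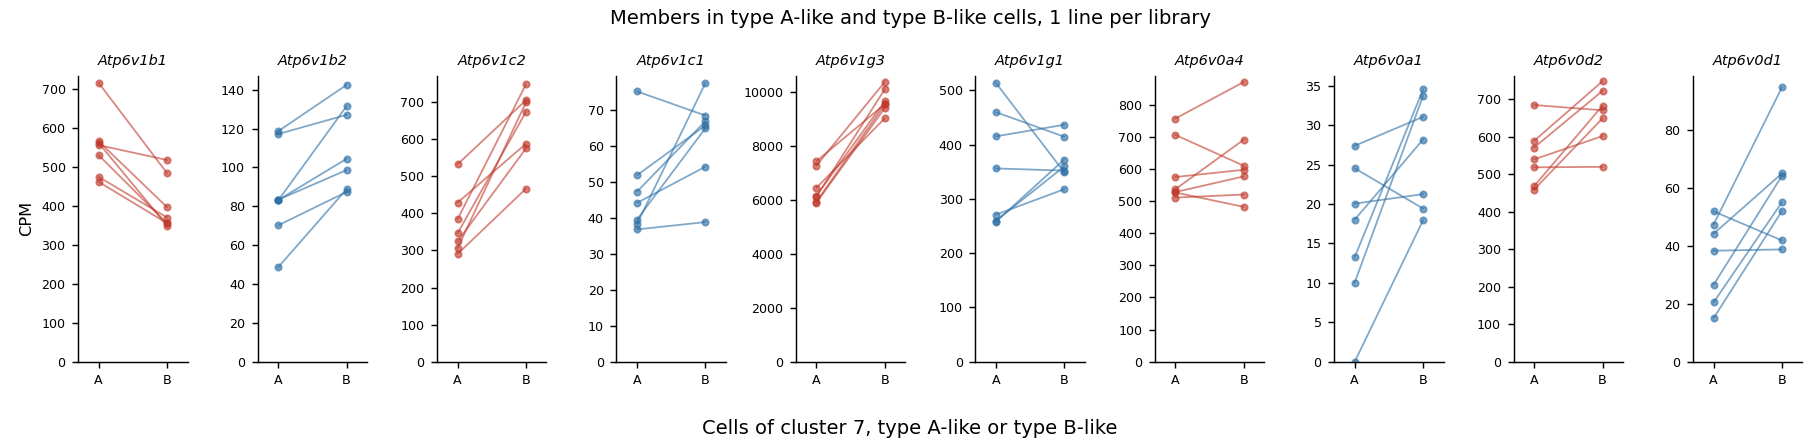
CPM of each member in type A-like (A) and type B-like (B) cells of cluster 7; each line is 1 library, and the vertical axes start at 0 and differ in scale. Every line falls from A to B for Atp6v1b1 and rises for Atp6v1b2, Atp6v1c2 and Atp6v1g3, although Atp6v1b2 did not pass the test.

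Macrophage-like cells (cluster 11, 228 cells) were compared with the lymphocyte-like clusters 13, 14 and 15, since phagocytes use the pump for lysosomes. All 5 kidney-restricted forms and 2 widely used forms were called higher, where 11.9% of genes were called higher and 10.1% lower. The kidney-restricted calls rested on library 5. In that library 4 cells held 268 of the 299 Atp6v1g3 UMIs of the cluster, or 89.6%, together with 46 UMIs of Slc26a4, 11 of Slc4a9 and 8 of Foxi1, and also C1qa, C1qb and C1qc. Each of the 4 cells had 8709 to 9992 UMIs, against a median of 1724.5 in the cluster. Without library 5 only Atp6v0a1 was called, at 2.96 (adjusted p = 0.019, edgeR), and Atp6v1g3 stood at 0.20 (adjusted p = 0.91). Atp6v0a1 itself rested on 11 UMIs in cluster 11, at 36.8 ± 52.9 CPM, against 32.1 ± 24.1 CPM in cluster 13, 4.61 CPM in cluster 14 and no UMI in any library of cluster 15. Its fitted value thus rests on a group at 0 and is no bound, and the libraries of clusters 11 and 13 overlapped.

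The company of each kidney-restricted form across the 16 clusters is described by Pearson's r of log2(CPM + 10) over the clusters among 6615 genes. No test was made, since the clusters share libraries and depth. The 5 genes most like Atp6v0d2 were Slc4a9 (r = 0.99), Foxi1, Aqp6, Hmx2 and Slc26a4. Those most like Atp6v1g3 were Insrr, Hepacam2, Syn2, Slc4a9 and Slc26a4 (each r = 0.98), and those most like Atp6v1c2 were Syn2, Hepacam2, Slc4a9, Foxi1 and Rhou. Genes among those most like Atp6v1b1 were Ckmt1 (r = 0.99), Tmem213, Efhd1 and Slc16a5. Atp6v0a4 was most like Atp6v1a (r = 0.97), then Cox7a1, Wdr72, Ccs and Slc43a2. Among the members, Atp6v1c2, Atp6v1g3 and Atp6v0d2 had r of 0.98 with each other. With these genes Atp6v0a4 had r of 0.76 to 0.84 and Atp6v1b1 had r of 0.78 to 0.85. Atp6v1b1 and Atp6v0a4 had r of 0.85 with each other.

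The widely used forms had weaker company. Atp6v1b2 was most like Slc25a1 (r = 0.89), Atp6v1c1 like Slc25a39 (r = 0.91), Atp6v1g1 like Dgat2 (r = 0.91), Atp6v0a1 like Pkig (r = 0.88) and Atp6v0d1 like Pxn (r = 0.83). The r within a pair ran from -0.23 for G to 0.27 for B, with 0.23 for C, 0.23 for a and -0.14 for d.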

How the data were processed

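Single-cell libraries of 7 mouse kidneys were deposited as 1 table of UMI counts per gene and cell, with a cluster number for each cell. Per the submitters' processing notes, the authors used Cell Ranger 1.3 and STAR with the GRCm38 genome; filtering and clustering are not given in the sources used here. Counts were summed per library and cluster (at least 5 cells) and fitted with edgeR 4.0.16 (TMM, filterByExpr, quasi-likelihood, terms for cluster and library, Benjamini-Hochberg over all genes), after a test on simulated data. Sums with the same library number come from the same kidney, hence the library term. The restricted share was compared by exact sign-flip permutation over libraries, two-sided, adjusted over 41 tests. DESeq2 1.42.0 was an alternative. Scrublet's own threshold called 43 cells (0.098%), so it did not work here and no doublets were removed; removing the 6% of cells with the highest scores was an alternative. Libraries shared 974 barcodes (1962 cells). Named genes are the 10 members, the listed V-ATPase genes and, for each member, the 5 genes with the highest correlation over clusters, of which 1 is not reported here. The members and lists were chosen with earlier results of these data known. Depth was 4.22e+06 to 5.00e+07 UMIs per library. Intervals are 95% intervals of the fitted log2 fold change, from its SE in the fit. No label says that libraries are separate animals beyond the 7 kidneys.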

Additional observations from a re-analysis of the deposited data

Results flagged for a closer look

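Among 90 member levels checked by cluster or cell type, 9 had 1 library far from the other libraries of its group, where chance flags about 1 in 20. In cluster 11, library 5 was the highest of 7 for 5 kidney-restricted forms. It held 1850 CPM of Atp6v1g3 (the other libraries 0 to 152), 205 CPM of Atp6v0a4 (0 to 82.0), 165 CPM of Atp6v1c2 (0 to 43.9), 145 CPM of Atp6v0d2 (0 in the others) and 106 CPM of Atp6v1b1 (0 to 43.9). The 4 deep cells with Slc26a4 UMIs lie in this library. In the same cluster Atp6v0a1 was 152 CPM in library 3, from 2 UMIs in 5 cells, against 0 to 39.6 CPM elsewhere. Atp6v0a4 in cluster 7 was 786 CPM in library 6 against 494 to 599 CPM in the others. In type A-like cells, Atp6v1b1 was 716 CPM in library 1 against 462 to 566 CPM, and Atp6v1c1 was 75.2 CPM in library 2 against 36.8 to 51.9 CPM.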

How the results depend on the processing

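Of the 29 called changes of single members over the 6 comparisons, 15 kept their call under every alternative, among them the 5 kidney-restricted forms in cluster 7, and 14 lost it under at least 1. Cluster 7 had 6 members called without any 1 library, and cluster 3 had 7 to 8. In cluster 5 against 4 the count was 0 without the filter on low counts, 0 at 1000 UMIs per cell and 0 with no replicate block, 2 with only the compared clusters in the fit, and 0 to 1 without 1 library. In cluster 8 against 7 it was 1 with DESeq2 size factors and 1 in the DESeq2 test (in both Atp6v0d1, higher, while the calls of Atp6v1g1 and Atp6v0d2 were lost), 1 with at least 20 cells per sum, 1 with no replicate block, 4 at 1000 UMIs, 4 with only the compared clusters, and 0 to 3 without 1 library. In cluster 11 it was 3 at 1000 UMIs, 1 with only the compared clusters, and 1 to 7 without 1 library; Atp6v0d2 went to -5.04 without library 5, a fitted value of a gene with no other UMI in that cluster, and was 3.01 to 3.498 without any other library. Type A against type B cells gave 3 calls in the DESeq2 test, 3 at 1000 UMIs and 4 to 6 without 1 library. Of 30 changes that were not called, 7 passed and 10 turned direction under at least 1 alternative. Among these, Atp6v1g1 in cluster 7 turned to -0.0472 with DESeq2 size factors, -0.053 in the DESeq2 test, -0.0470 at 1000 UMIs and -0.00136 with only the compared clusters, and ran from -0.054 to 0.076 without 1 library, and Atp6v0a4 in cluster 3 turned to -0.28 and -0.30 with DESeq2 size factors and test, and ran from -0.11 to 0.12 without 1 library.

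For the restricted share, at least 30 UMIs per pair left 3 pairs for 7 against 4, 0 for 7 against 6, 2 for 3 against 4 and 2 for 3 against 5. At 1000 UMIs per cell these counts were 3, 0, 2 and 2, and 0 for type A against B. At least 20 cells per sum left 0 for 7 against 6. Without 1 library the counts ran from 0 to 5 for 7 against 3, 4 and 5, 0 to 2 for 7 against 6, 0 to 5 for 3 against 4, 0 to 4 for 3 against 5, 0 to 2 for type A against B, and 0 for 8 against 7: without any 1 of libraries 1 to 6 the adjusted p of the 28 called differences was 0.051 to 0.092, since 6 libraries give no exact p below 0.031. The levels in clusters 3 and 7 moved by less than 1 SD when cells were pooled or sums needed 20 cells, in 40 of 40 cases. Forms at a few UMIs per library, as in clusters 8 and 11, are limited by depth.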
